A study of Mus musculus with 12 samples.

Results

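*Axl*, *Mertk*, *Pros1* and *Mfge8* are 4 of the 770 genes of the NanoString nCounter Neuroinflammation panel, and were chosen by name as the receptors and bridging proteins of apoptotic cell clearance that have a row in the table of normalized values. nCounter counts color-coded probes bound to single RNA molecules, without amplification, and the values described here were normalized by the authors to housekeeping genes. The 12 samples were microglia of mice labelled C57B6. The labels call mice and cells untreated and give no genotype, whereas the study's legend for these groups gives tamoxifen, recent in adult and long past in aged mice, and its methods a tamoxifen-inducible Cre with YFP under the *Cx3cr1* promoter. Age and time since tamoxifen cannot be told apart in the comparisons with adult. Each pooled the CNS cells of 1 male and 1 female. Cells were enriched with CD11b beads, fixed, permeabilized and sorted as YFP+, CD45 intermediate and Ly6G-. Microglia of mice over 80 weeks old were further separated by phosphorylation of ERK1/2 at Thr202/Tyr204 into P-ERK1/2 High (the High group, samples 2, 5, 7 and 8) and P-ERK1/2 Low (the Low group, samples 3, 6, 9 and 12). Microglia of adult mice, 12 to 20 weeks old, were not separated by P-ERK1/2 (samples 1, 4 and 10). Adult sample 11, which its label marks as excluded for poor quality, entered no comparison. The labels do not say whether a High and a Low sample came from the same mice, and with pools of this size the p-values measure the spread between these samples.

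Dying cells expose phosphatidylserine, and phagocytes take them up through bridging proteins that bind this lipid on one side and a receptor on the other. AXL and MERTK are receptor tyrosine kinases of the TAM family (TYRO3, AXL, MERTK). MERTK is the TAM receptor of resting macrophages and microglia and is engaged by protein S, encoded by *Pros1*, and by GAS6. AXL is engaged by GAS6, and is known to be low in resting microglia and induced in reactive ones and by interferon. MFG-E8, encoded by *Mfge8*, links phosphatidylserine to the integrins αvβ3 and αvβ5, so that it feeds a parallel route to the same engulfment machinery. *Gas6* and *Tyro3* were not analysed here.

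In the mouse genome (GRCm38.p6, RefSeq) all 4 are protein coding genes. *Axl* lies at chr7:25756500-25788924, *Mfge8* at chr7:79133768-79149060, *Mertk* at chr2:128698915-128803162 and *Pros1* at chr16:62854307-62929346. *Mertk* and *Pros1* were picked because the range of their ratio in High lay apart from those in Low and adult. Whether their promoters bear on this ratio was not tested. The bases directly before *Mertk* and *Pros1* are given below, together with the 59 bases of the *Axl* promoter window that lie outside the annotated gene. All are written 5′ to 3′ on the strand of the gene. Capitals mark the GC box, GGGCGG on either strand, which is the core of the sites that SP family factors bind. The windows are chr2:128698665-128698914 (plus strand), chr16:62854057-62854306 (plus strand) and chr7:25788925-25788983 (minus strand).
Mertk: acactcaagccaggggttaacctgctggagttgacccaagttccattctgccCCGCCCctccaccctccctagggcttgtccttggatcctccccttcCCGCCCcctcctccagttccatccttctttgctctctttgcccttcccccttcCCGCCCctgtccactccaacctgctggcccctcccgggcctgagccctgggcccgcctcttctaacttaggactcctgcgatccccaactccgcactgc
Pros1: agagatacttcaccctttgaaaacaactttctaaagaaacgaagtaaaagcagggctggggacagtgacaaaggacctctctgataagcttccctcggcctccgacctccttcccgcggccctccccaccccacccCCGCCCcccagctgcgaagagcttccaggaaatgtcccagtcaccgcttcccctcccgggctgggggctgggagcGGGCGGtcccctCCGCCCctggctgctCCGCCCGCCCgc
Axl: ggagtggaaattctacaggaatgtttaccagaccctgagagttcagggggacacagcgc
The *Pros1* window held 5 GC boxes, of which the last pair overlap, and 15 CpG in 250 bases, and the *Mertk* window 3 GC boxes and 7 CpG. Over the full RefSeq promoter window around the start site, GC boxes numbered 2 for *Axl*, 4 for *Mertk*, 5 for *Pros1* and 4 for *Mfge8*, and 35.7% of all 32851 promoter windows held at least 1. None of the 4 windows held the AP-1 letters TGANTCA (on either strand), found in 7.81% of all windows, or the core of an interferon-stimulated response element, found in 3.44%.

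The groups were not counted to the same depth. The total gene count was 650965 to 1539936 in High, 123798 to 157209 in Low, 137980 to 326575 in the 3 adult samples and 1464449 in sample 11. A gene was taken as above background when its count exceeded the mean plus 2 SD of the 8 negative control probes. This left 589 to 673 genes in High, 410 to 484 in Low and 417 to 560 in adult samples. All 4 genes were above background in all 12 samples. Their lowest counts were 58 to 242 in Low, 80 to 226 in adult and 167 to 3101 in High samples. High sample 7 stood farthest from its own group. Its mean distance over all log2 values was 23.5, against 16.6 to 21.2 for the other High samples.

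The receptor *Axl* separated the High samples from all other kept samples. Its normalized value was 4757, 6356, 3482 and 5613 in High samples 2, 5, 7 and 8, against 820, 876, 800 and 1157 in Low samples 3, 6, 9 and 12. The adult samples 1, 4 and 10 had 678, 1050 and 558. The lowest High sample thus lay above the highest sample of both other groups, while Low and adult overlapped. The means were 5052 ± 1234 (SD, n = 4), 913 ± 166 (SD, n = 4) and 762 ± 257 (SD, n = 3).

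*Mertk* did not share this pattern. Its normalized value was 237, 288, 188 and 267 in High samples 2, 5, 7 and 8. Low samples 3, 6, 9 and 12 had 417, 358, 334 and 394, and adult samples 1, 4 and 10 had 302, 342 and 353. Every High sample lay below every sample of the other groups on this scale, and Low and adult overlapped. The means were 245 ± 43.6 (SD, n = 4) in High, 376 ± 36.7 (SD, n = 4) in Low and 332 ± 27.2 (SD, n = 3) in adult.

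Of the bridging proteins, *Pros1* was highest in High on this scale, with normalized values of 301, 552, 350 and 427 in samples 2, 5, 7 and 8. Low samples 3, 6, 9 and 12 had 197, 238, 251 and 254, and adult samples 1, 4 and 10 had 182, 217 and 240. High did not overlap the other groups. *Mfge8* had 381, 492, 312 and 461 in High samples 2, 5, 7 and 8, and 630, 480, 492 and 710 in Low samples 3, 6, 9 and 12. Adult samples 1, 4 and 10 had 284, 512 and 336 for *Mfge8*, so all 3 groups overlapped for this gene. Sample 7 was the lowest High sample for *Axl*, *Mertk* and *Mfge8*, but not for *Pros1*.

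**Figure D1:**
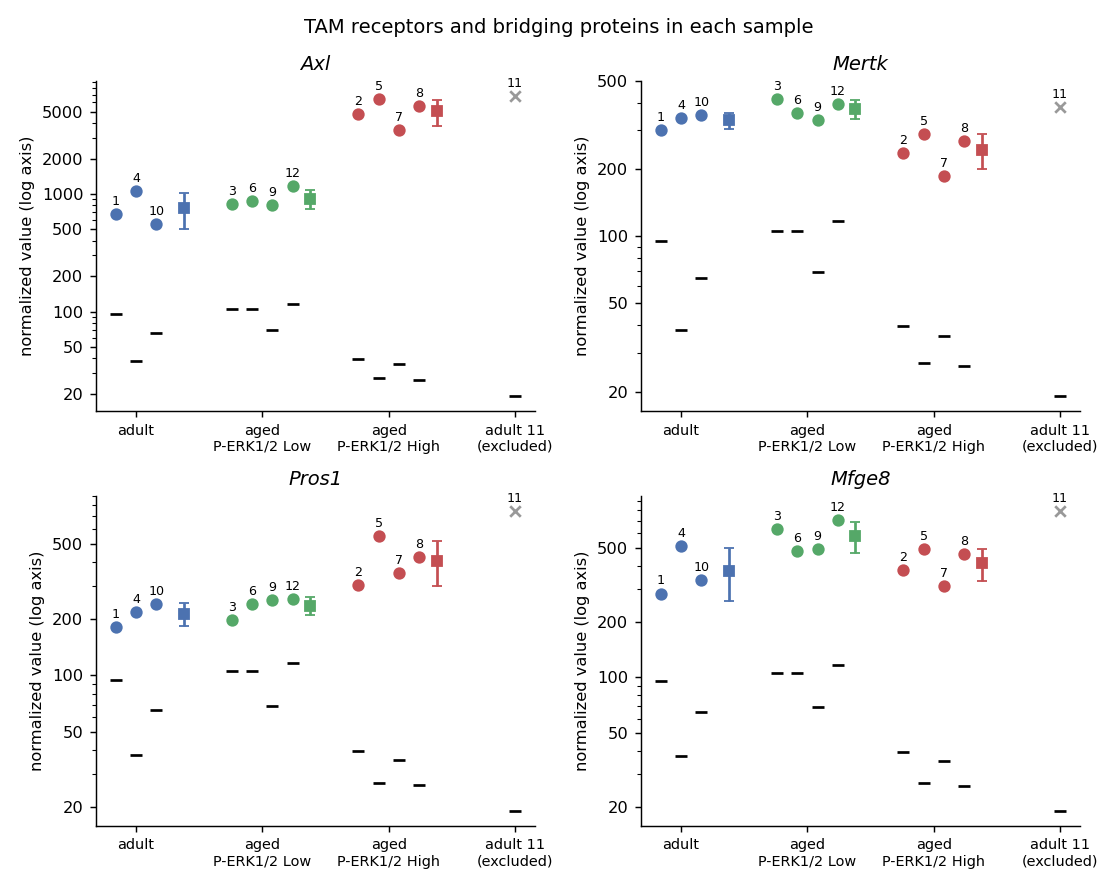
Normalized value (log axis) of *Axl*, *Mertk*, *Pros1* and *Mfge8* in each sample, by group, with sample numbers above the points. Squares and bars give the mean and SD of a group, black dashes the background of each sample in the same unit, and the cross the excluded adult sample 11. *Axl* in High runs from 3482 to 6356 and lies above all kept samples of the other groups, *Mertk* in High from 188 to 288 and lies below them, and every point lies above its background dash.

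The comparison of High with Low samples asked how the aged microglia with more of this phosphorylation differed from those with less. A gene was called at a limma p below 0.01 and a log2 fold change beyond 1 in size. *Axl* was the 1 of the 4 genes that was called, where 37.8% of all genes were called. It rose by 2.45 on the log2 scale (SE 0.25, 95% interval 1.91 to 2.99, limma adjusted p = 1.35e-05), which is 5.45-fold. *Axl* ranked 29 from the top among the 770 fold changes. The exact two-sided permutation test of this gene gave p = 0.0286, the smallest value that 4 against 4 samples allow. *Axl* was called under every alternative scaling tried and with any 1 sample left out.

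*Pros1* and *Mertk* differed in opposite directions without being called. With *Axl* they were the 3 of the 4 genes with an adjusted p below 0.05, as were 52.2% of all genes. *Pros1* was 1.69-fold higher in High (log2 0.76, SE 0.24, 95% interval 0.24 to 1.28, limma adjusted p = 0.0178), but stood at -0.26 when all samples were scaled to an equal total. *Mertk* was 1.54-fold lower (log2 -0.63, SE 0.22, 95% interval -1.10 to -0.15, limma adjusted p = 0.0283). It stood at only -0.084 with the 6 most stable housekeeping genes, and at 1.35 when the samples were scaled to the positive controls alone. For *Mfge8* the difference was -0.49 (SE 0.24, 95% interval -1.01 to 0.03, limma adjusted p = 0.101), and it did not exceed the spread between samples. It was -1.52 and called with an equal total, 0.053 with the 6 most stable housekeeping genes and 1.49 with the positive controls alone. As deposited, groups that do not overlap were found for 3 of the 4 genes, against 49.4% of all genes, and each of these 3 had an exact permutation p of 0.0286.

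Each gene was also set against the rest of the panel. The median over all genes was a log2 fold change of 0.26 as deposited and moved from -0.76 (equal total) to 2.15 (positive controls alone) between scalings. Relative to this median, *Axl* was higher by 1.67 to 2.28 and *Pros1* by 0.29 to 0.58 over 11 settings, while *Mertk* had -1.36 to -0.77 and *Mfge8* -1.28 to -0.65. Setting a gene against the median cancels any scaling that moves all genes of a sample alike, so these ranges are no further check of the direction.

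**Figure D2:**
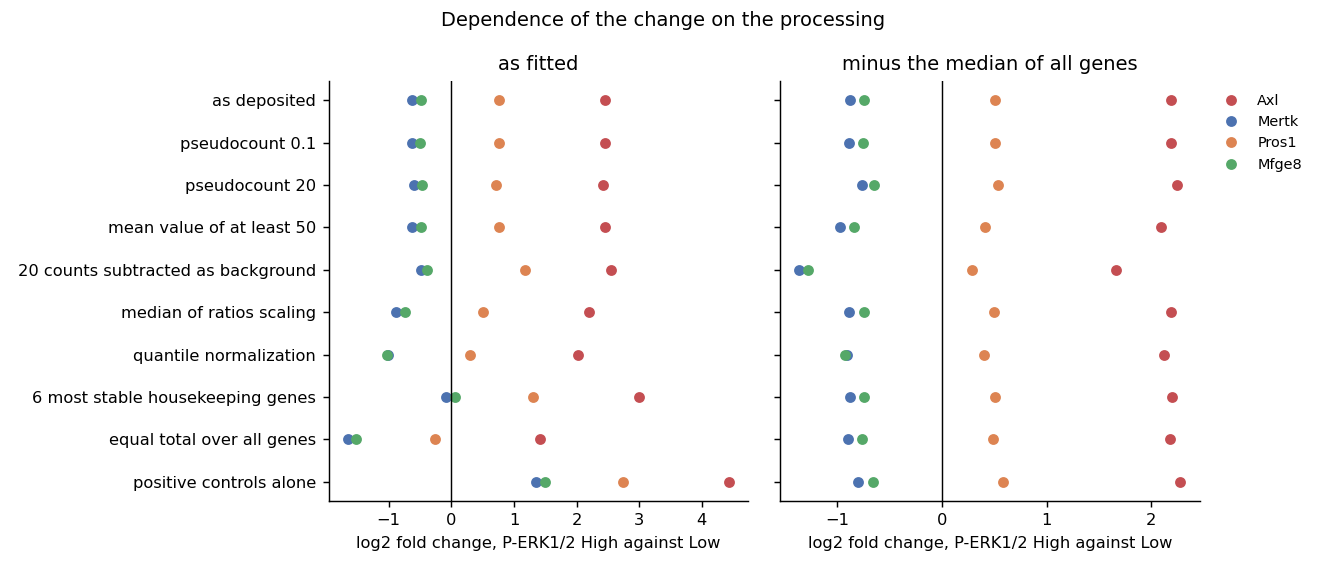
Log2 fold change of the 4 genes in High against Low (x axis) under the processing named on the y axis, as fitted (left) and after subtraction of the median over all genes (right). On the left *Axl* stays above 0 under every setting shown, while *Mertk*, *Mfge8* and *Pros1* cross 0 (*Pros1* at -0.26 with an equal total). On the right *Axl* and *Pros1* stay above 0, and *Mertk* and *Mfge8* below it.

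In Low against adult, the comparison of aged microglia with low phosphorylation with unseparated adult microglia, none of the 4 genes was called, where 10.8% of all genes were. The largest difference was that of *Mfge8*, at 0.64 on the log2 scale or 1.56-fold (SE 0.24, 95% interval 0.08 to 1.20, limma adjusted p = 0.0903). It turned to -0.17 when scaled to the positive controls alone, and its groups overlapped (exact permutation p = 0.171, where 4 against 3 samples cannot give less than 0.0571). The differences of *Axl* (0.30, SE 0.24), *Mertk* (0.17, SE 0.14) and *Pros1* (0.15, SE 0.16) were within the spread between samples, with limma adjusted p of 0.411, 0.411 and 0.544. Their 95% intervals still allow a log2 difference of up to 0.86 for *Axl*, 0.51 for *Mertk* and 0.52 for *Pros1*.

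In High against adult, which shares the High samples with the first comparison and the adult samples with the second, *Axl* rose 6.70-fold (log2 2.74, SE 0.31, 95% interval 2.06 to 3.42, limma adjusted p = 9.12e-05). It was again the 1 gene of the 4 that was called, where 36.9% of all genes were. *Axl* and *Pros1* were the 2 of the 4 with an adjusted p below 0.05, as were 48.2% of all genes. *Pros1* was 1.88-fold higher (log2 0.91, SE 0.27, 95% interval 0.30 to 1.51, limma adjusted p = 0.0193), but stood at -0.50 with an equal total. *Mertk* differed by -0.45 (SE 0.25, limma adjusted p = 0.151) and *Mfge8* by 0.15 (SE 0.29, limma adjusted p = 0.700). Both signs turned with the scaling. *Mertk* was 0.10 with the 6 most stable housekeeping genes and 0.72 with the positive controls alone, and *Mfge8* was -1.26 with an equal total. As deposited, the groups did not overlap for *Axl*, *Mertk* and *Pros1*, each at an exact permutation p of 0.0571, and 50.3% of all genes did not overlap in this comparison. With sample 11 added to the adult group, *Axl* was no longer called, at a log2 difference of 1.94 and a limma adjusted p of 0.168.

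**Figure D3:**
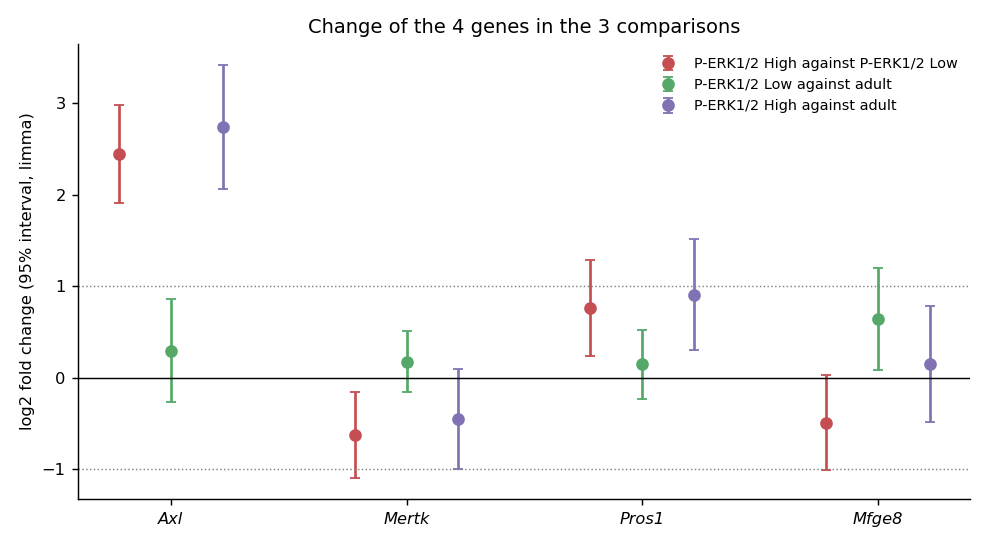
Log2 fold change of the 4 genes with its 95% interval from limma, for High against Low, Low against adult and High against adult, with dotted lines at the fold limit of 1 and -1. Both *Axl* intervals that involve High (1.91 to 2.99 and 2.06 to 3.42) lie above 1, and all intervals of the other genes reach inside the limits.

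A ratio of 2 genes within a sample does not depend on how the sample was scaled. Probes of different genes may be counted with different efficiency, so only the change of a ratio between groups is read here. The *Axl* to *Mertk* ratio was 18.6 to 22.1 in High, 1.97 to 2.94 in Low and 1.58 to 3.07 in adult. It was thus 8.45-fold higher in High than in Low (exact permutation p = 0.0286), with 4 of 4 samples above all Low samples. Leaving out any 1 sample kept the log2 difference of 3.08 between 2.98 and 3.17. Low and adult differed by 0.12 in this log2 ratio (exact permutation p = 0.686).

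The ratio of the receptor *Mertk* to its ligand *Pros1* was 1.33 to 2.12 in Low, 1.47 to 1.66 in adult and 0.522 to 0.789 in High, a log2 difference of -1.39 against Low (exact permutation p = 0.0286). The bridging proteins shifted against each other as well. *Pros1* to *Mfge8* was 0.789 to 1.12 in High and 0.312 to 0.511 in Low, 2.39-fold higher (exact permutation p = 0.0286). *Axl* to *Mfge8* was 11.2 to 12.9 in High against 1.30 to 1.82 in Low, 7.68-fold higher (exact permutation p = 0.0286). *Axl* to *Pros1* was 3.22-fold higher (exact permutation p = 0.0286).

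*Mertk* to *Mfge8* was the pair that kept overlapping ranges, 0.580 to 0.623 in High and 0.555 to 0.745 in Low (log2 difference -0.14, exact permutation p = 0.171). Over the 18 exact permutation tests of ratios, Benjamini-Hochberg adjustment brought p = 0.0286 to 0.0935. No ratio could pass 0.05 after this correction whatever its values. The exact permutation p cannot fall below 0.0286 with 4 against 4 samples, or below 0.0571 with 4 against 3.

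**Figure D4:**
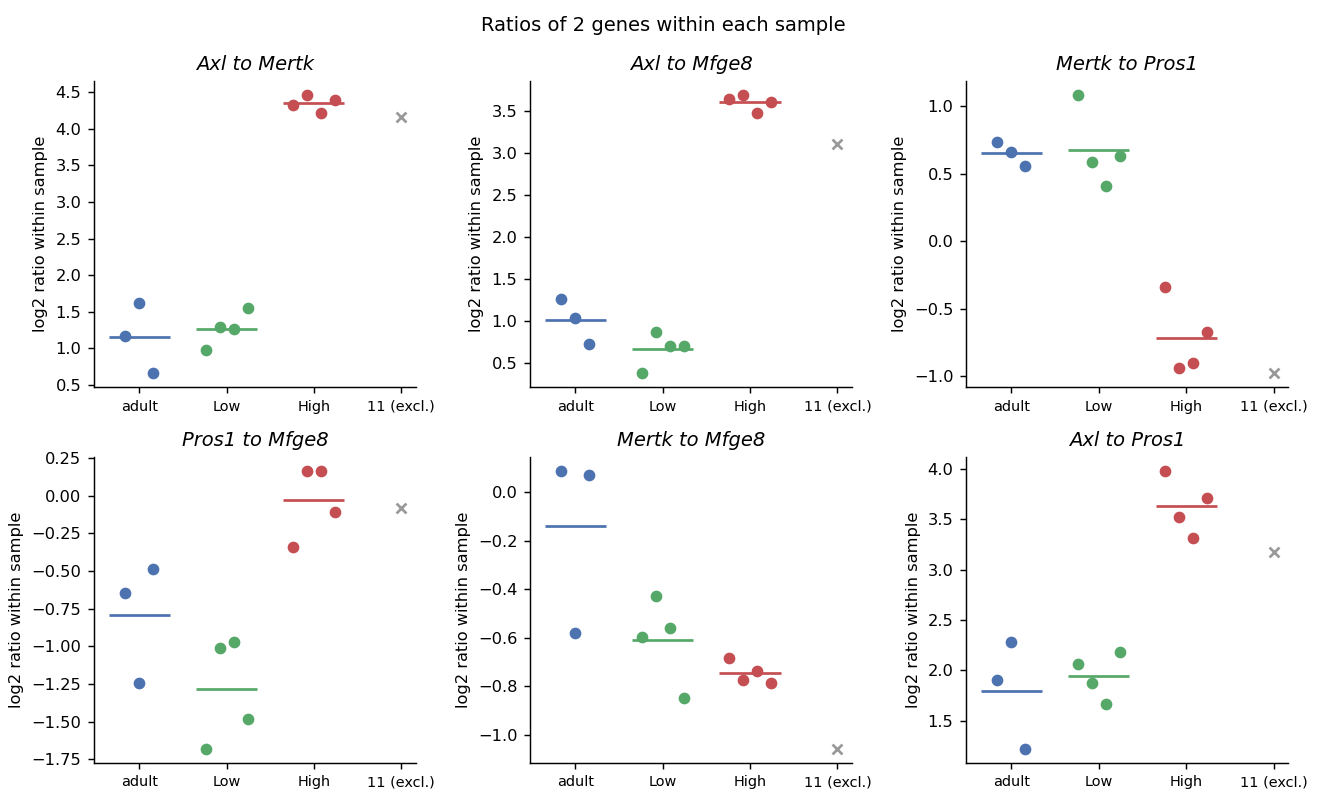
Log2 ratio of 2 genes within each sample (y axis) for the 6 pairs, by group, with the group mean as a line and the excluded adult sample 11 as a cross. The *Axl* to *Mertk*, *Axl* to *Mfge8*, *Axl* to *Pros1* and *Pros1* to *Mfge8* ratios are higher in all 4 High samples than in all Low and kept adult samples, *Mertk* to *Pros1* is lower, and *Mertk* to *Mfge8* overlaps between High and Low.

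Depth moved with *Axl*, and so did the sums of some but not all marker lists of other cells, as deposited. The High samples had higher total counts than the other 2 groups, and sample 11, labelled adult but counted to 1464449, had an *Axl* value of 6801. Its *Axl* to *Mertk* ratio of 17.9 was close to that of High. The background in the unit of the normalized values was 26.1 to 39.5 in High and 69.2 to 117 in Low, against which the lowest *Axl* value of 800 stood well clear. Subtraction of 20 counts as background left the *Axl* difference at 2.55. The part of depth in the result was not tested.

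The summed value of 7 astrocyte markers was 1426 to 2145 in High, 594 to 829 in Low, 474 to 656 in adult and 2159 in sample 11. Of these markers 3 were called higher in High than in Low (*Gja1* 1.32, *Kcnj10* 1.96 and *Sox9* 1.95 on the log2 scale) and 1, *Gdpd2*, lower (0.76 with the positive controls alone), where 28.2% of all genes were called higher and 9.61% lower, but with an equal total 0 were called higher and 3 lower, beside 7.66% higher and 40.4% lower over all genes. The High sums were carried largely by *Gja1*, at 575 to 1081, and *Sox9*, at 415 to 672. *Slc1a3* had -0.998 (limma adjusted p = 0.0279), just short of the fold limit, and ran from -1.99 to 0.93 over 7 scalings. *Agt* had -0.20 and *Aldh1l1* 0.67, and neither was called as deposited. *Gdpd2* and *Agt* were above background in no High or Low sample, and *Aldh1l1*, *Slc1a3* and *Kcnj10* in no Low sample. The sum of 9 endothelial markers was 805 to 1559 in High, 344 to 546 in Low and 395 to 590 in adult. Of these 4 were called higher, among them *Flt1* at 2.66 and *Cldn5* at 1.94, beside the same 28.2% over all genes. With an equal total 1 was called higher and 1 lower, beside 7.66% and 40.4% over all genes. With the positive controls alone all 9 were called higher, beside 85.6% over all genes. *Flt1*, *Cldn5*, *Pecam1*, *Esam*, *Nostrin* and *Tie1* were above background in no Low sample, and *Tie1* in no High sample either.

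For 7 T and NK cell markers the sums were 240 to 994 in High, 123 to 186 in Low and 99.0 to 230 in adult, with 2 called higher (*Cd3e* 3.81 and *Cd3g* 1.31), a share near the 28.2% of all genes, and none of the 7 was above background in any Low sample. The High sums were carried largely by *Cd3e*, at 112 to 801, while *Cd8a* (0.18), *Cd6* (-0.44), *Nkg7* (-0.06) and *Klrb1* (-0.15) were not called as deposited and changed sign between scalings. With an equal total 1 of the 7 was called higher and 1 lower (7.66% and 40.4% over all genes), and with the positive controls alone all 7 higher (85.6% over all genes). The sums of 8 microglial markers overlapped between the groups, at 2851 to 3544 in High, 3371 to 3692 in Low and 3487 to 3801 in adult. *Csf1r*, the receptor for CSF-1 and IL-34, made up most of the Low sums, at 2602 to 2937, and stood at 1195 to 1838 in High. It differed by -0.84 (limma adjusted p = 5.89e-03), short of the fold limit, and by 1.15 with the positive controls alone. All 8 were above background in every High sample, whereas *P2ry12* and *Gpr34* were above background in no Low sample. As deposited 4 of the 8 were called higher in High than in Low (*Tmem119* 2.02, *P2ry12* 1.91, *Sall1* 1.70 and *Gpr34* 1.13) and 0 lower, beside 28.2% higher over all genes. With an equal total 0 of the 8 were called higher and 1 lower, beside 7.66% higher and 40.4% lower over all genes. In Low against adult 0 were called higher and 3 lower (*Tmem119* -1.03, *Fcrls* -2.31 and *Olfml3* -1.56), where 8.05% of all genes were called higher and 2.73% lower, and 6 were called lower with an equal total (7.66% of all genes). Border macrophage and monocyte markers summed to 197 to 246 in High, 147 to 189 in Low and 142 to 202 in adult. Of the 4, 1 was called higher, *Cd163* at 1.15, near the 28.2% of all genes, but it was above background in no Low sample. With an equal total 0 of the 4 were called higher and 1 lower, beside the same 7.66% and 40.4% over all genes.

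Of 9 oligodendrocyte markers, 1 was called higher (*Gjb1* 2.16, in no Low sample above background) and 1 lower (*Cnp* -1.07, which was 0.90 with the positive controls alone), where 28.2% of all genes were called higher and 9.61% lower. With an equal total 0 of the 9 were called higher and 2 lower (7.66% and 40.4% over all genes), and with the positive controls alone 7 higher and 0 lower (85.6% higher over all genes). Of these 9, *Mog*, *Mag*, *Opalin*, *Mal* and *Ugt8a* were above background in no kept sample, as were the neutrophil markers *Ly6g* and *Fpr1*. Of 10 neuron markers, 2 were called higher (*Rbfox3* 2.45 and *Syn2* 2.17) and 1 lower (*Nefl* -1.03, which was 0.85 with the positive controls alone), with none above background in any Low or adult sample, beside the same shares of all genes. These counts were 2 higher and 5 lower with an equal total, and 8 higher and 0 lower with the positive controls alone, beside the shares just given for these scalings. Of 3 B cell markers, 1 was called higher (*Blk* 1.45), again beside 28.2% of all genes and with none above background in Low or adult. No B cell marker was called with median of ratios or quantile normalization. Over all genes 23.0% were called higher and 15.7% lower with the first, and 19.0% and 18.4% with the second. With an equal total 0 B cell markers were called higher and 2 lower, beside 7.66% and 40.4% over all genes. Whether astrocytes, endothelial cells, T cells, border macrophages, oligodendrocytes, neurons or B cells contributed to the *Axl* value was not tested. In pooled RNA of sorted cells, fewer cells that carry a transcript and less of it per cell cannot be told apart.

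Among 14 other receptors and opsonins for dying cells and debris, 2 were called higher and 1 lower in High than in Low, where 28.2% of all genes were called higher and 9.61% lower. Their median log2 fold change was 0.30 beside 0.26 over all genes, and it ranged from -0.73 (equal total) to 2.28 (positive controls alone). With an equal total 0 of the 14 were called higher and 5 lower, near the 7.66% and 40.4% of all genes, and with the positive controls alone 13 were called higher and 0 lower, beside 85.6% higher over all genes. *Itgav*, the αv chain of the integrins that MFG-E8 binds, rose by 1.78 (limma adjusted p = 8.51e-04), from 669 ± 80.4 to 2532 ± 1385 (SD, n = 4 each), and was not called with an equal total, at 0.76. *Itgb5*, the β5 chain of the same receptor, differed by -0.57 (limma adjusted p = 0.0881), and by 1.42 when scaled to the positive controls alone. The αv and β5 chains of this receptor thus gave values of opposite sign as deposited, but the *Itgb5* groups overlapped and its difference was within the spread between samples.

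*Anxa1*, a phosphatidylserine-binding protein, rose by 1.77 (limma adjusted p = 6.47e-03), although its groups overlapped and it was not called with an equal total, at 0.74. The scavenger receptor *Cd36* fell by 1.56 (limma adjusted p = 9.67e-03), but stood at 0.43 when scaled to the positive controls alone. *Tgm2*, a transglutaminase that assists αvβ3 in engulfment, was below the fold limit at 0.96 (limma adjusted p = 7.72e-03) and turned to -0.07 with an equal total. *Trem2*, a lipid receptor of microglia, had -0.52 (limma adjusted p = 0.0991), and 1.47 when scaled to the positive controls alone. The complement genes *C1qa*, *C1qb* and *C1qc*, which opsonize debris, lay between 0.28 and 0.36 as deposited, between -0.75 and -0.66 with an equal total, and were not called as deposited.

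In Low against adult, 3 of the 14 receptors and opsonins were called higher, 0 lower and 11 not at all as deposited, where 8.05% of all genes were called higher and 2.73% lower. The count called lower was 2 with an equal total, with quantile normalization and with 20 counts subtracted, 1 with median of ratios and 5 with the positive controls alone, which left 1 called higher. Over all genes the share called lower was 7.66%, 4.55% and 10.4% with the first 3 of these, 3.51% with median of ratios and 28.3% with the positive controls alone. *Cd36* rose by 2.48 in Low (limma adjusted p = 2.00e-04), from 496 ± 114 (SD, n = 3) to 2731 ± 296 (SD, n = 4). The scavenger receptor *Msr1* rose by 1.71 (limma adjusted p = 2.55e-04) and *Anxa1* by 1.78 (limma adjusted p = 5.82e-03), though with the positive controls alone these were 0.90 and 0.96 and not called. *Itgb5* had 1219 ± 67.8 (SD, n = 4) in Low and 2445 ± 299 (SD, n = 3) in adult (limma adjusted p = 2.56e-03), just short of the fold limit as deposited, and was called lower in 5 of 7 scalings (log2 -1.81 to -0.99 over the 7).

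Of 9 genes of the engulfment machinery, 1 was called higher and 3 lower in High than in Low, with a median of -0.80 beside 0.26 over all genes and with 28.2% of all genes called higher and 9.61% lower. This median stayed below 0 under the other scalings except that to the positive controls alone, at 1.18. The counts were 1 higher and 6 lower with an equal total, 1 and 1 with the 6 housekeeping genes, and 5 higher and 0 lower with the positive controls alone. Over all genes 7.66% were called higher and 40.4% lower with the first, 40.3% and 1.04% with the second and 85.6% higher with the last. *Dock1*, the RAC exchange factor that acts with ELMO downstream of the integrins and TAM receptors, rose by 2.30 (limma adjusted p = 1.27e-05), from 170 ± 17.1 to 856 ± 177 (SD, n = 4 each). The 3 genes called lower were *Was* at -1.72, *Vav1* at -1.25 and *Pak1* at -1.20, all regulators of actin assembly, and with the positive controls alone these were 0.25, 0.73 and 0.77. *Rhoa*, a GTPase that opposes engulfment, was below the fold limit at -0.96 (limma adjusted p = 2.01e-03) and turned to 1.03 when scaled to the positive controls alone. *Was* was also the 1 gene of this list called in Low against adult, where 10.8% of all genes were called, and it rose by 1.11, called in 4 of 7 scalings and 0.30 with the positive controls alone.

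TAM receptors signal through AKT and restrain Toll-like and interferon receptors, in part through SOCS proteins. Of 7 such partners and targets, 2 were called higher and 0 lower in High than in Low, with a median of 0.26 that ranged from -0.76 (equal total) to 2.22 (positive controls alone). Both the share called and the median were near those of all genes, 28.2% and 0.26. With an equal total 1 was called higher and 2 lower (7.66% and 40.4% over all genes), and with the positive controls alone all 7 higher (85.6% over all genes). *Akt1* rose by 2.35 (limma adjusted p = 7.40e-06), from 1432 ± 216 to 7270 ± 710 (SD, n = 4 each), and was called under all 7 scalings. *Traf6*, an adaptor of Toll-like receptors, rose by 2.02, but none of the 4 Low samples was above background for it and it was not called with an equal total. *Socs3*, an inhibitor of cytokine signalling, had 0.15 and was not called. In Low against adult, *Nfkbia*, the inhibitor of NF-κB, was the 1 of the 7 that was called, near the 10.8% of all genes, and rose by 1.24, called in 5 of 7 scalings and 0.43 with the positive controls alone.

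*Axl* is itself induced by interferon in macrophages. Of 14 interferon induced genes, 2 were called higher in High than in Low and 0 lower, with a median of 0.21 beside 0.26 over all genes and with 28.2% of all genes called higher. With an equal total 1 was called higher and 6 lower (median -0.80), and with the positive controls alone 12 higher and 0 lower (median 2.13), near the shares of all genes, 7.66% and 40.4% with the first and 85.6% higher with the second. The calls as deposited were the RNA sensors *Ifih1*, at 2.91 with 1 of 4 Low samples above background, and *Ddx58*, at 1.54 (limma adjusted p = 1.13e-04), which was not called with an equal total, at 0.51. *Irf1*, a transcription factor, and *Psmb8*, a subunit of the immunoproteasome, had -0.85 and -0.93 (limma adjusted p = 8.52e-03 and 2.91e-03), and 1.13 and 1.05 when scaled to the positive controls alone. As 7 of the 14 genes were above background in no Low sample, a difference in these was not detectable at this depth unless High exceeded that background.

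**Figure D5:**
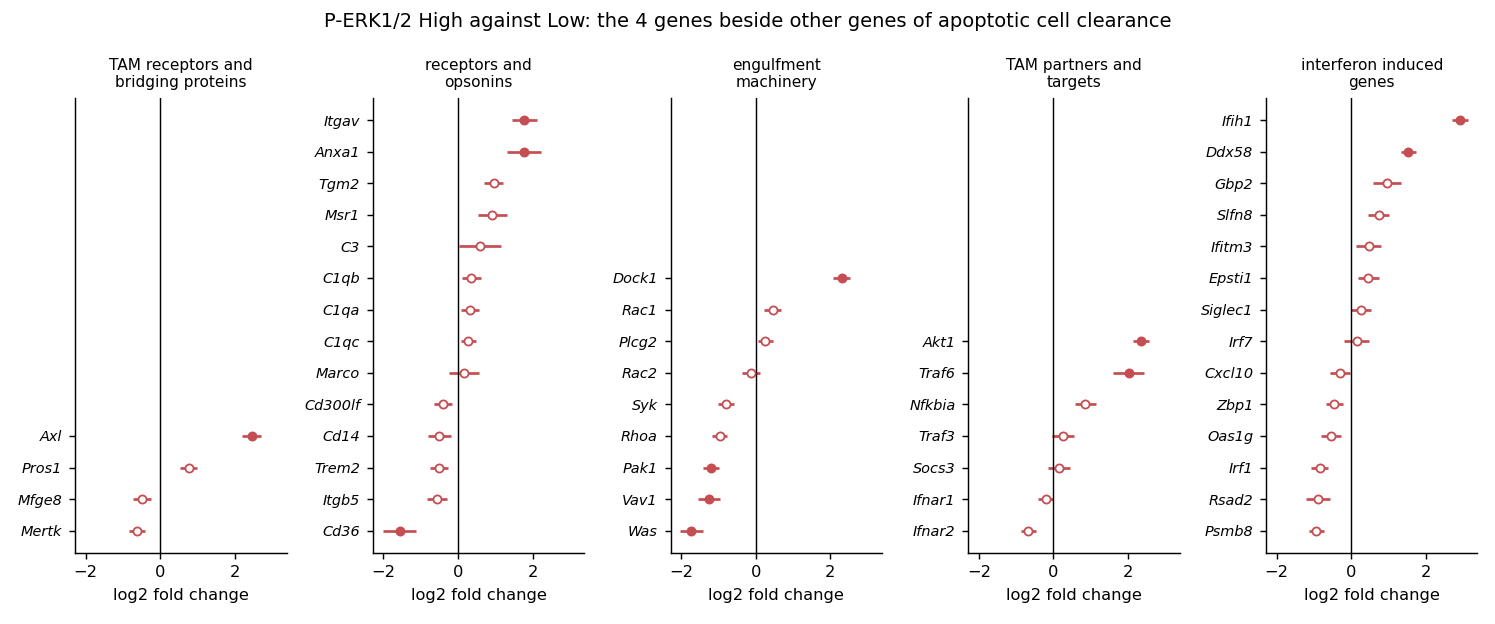
Log2 fold change of High against Low (x axis, points with bars of 1 SE from limma) for the 4 genes and for 4 lists of related genes, with called genes filled. *Axl* (2.45), *Dock1* (2.30), *Akt1* (2.35) and *Ifih1* (2.91) lie farthest to the right in their panels, and these stay above 0 under all 7 scalings, whereas *Cd36* and *Was*, farthest to the left in theirs, turn positive with the positive controls alone.

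The panel genes whose log2 values followed the 4 most closely over the 11 kept samples differed for each. These are descriptions over 3 groups that share a scaling and a difference in depth, and carry no test. *Axl* was followed by *Dlg4* (Pearson r = 0.997, Spearman correlation 0.99), *Tnfrsf10b* (r = 0.989) and *Irak1* (r = 0.989). *Dlg4* had means of 161 in adult, 180 in Low and 383 in High. *Pros1* was followed by *Tnfsf12* (r = 0.984), *Becn1* (r = 0.974), a component of the autophagy initiation complex, and *Cd68* (r = 0.965), a lysosomal membrane protein of phagocytes. *Cd68* had means of 8280 in adult, 10733 in Low and 20673 in High.

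*Mertk* was followed by *Kat2a* (r = 0.927), *Pttg1* (r = 0.917) and *Cotl1* (r = 0.906), an actin-binding protein with means of 3341 in adult, 4373 in Low and 2353 in High. *Mfge8* was followed by *Ehmt2* (r = 0.934), *Ltbr* (r = 0.934) and *Pla2g4a* (r = 0.927). *Ehmt2* had means of 472, 659 and 471 in adult, Low and High.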

How the data were processed

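RNA of sorted and fixed mouse microglia was counted in 12 samples on the NanoString nCounter Neuroinflammation panel. The deposited table holds 1 signal value per gene and sample, which the authors had obtained with nSolver normalization. In these values the geometric mean of the 13 housekeeping genes is 173 in every sample, so a change common to these genes is removed. The version of that software was not given in the sources used here. The 6 positive and 8 negative control rows are unscaled counts. The value of 1 count was found for each sample from the spacing of its low values, and 100% of the values were then whole within 0.1. The count totals and the background rest on this. Precision follows the counts, which are fewest in Low.

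Samples were grouped by their labels, and 0 columns were left unmapped. The 3 comparisons were fitted on log2(value + 1) with limma 3.58.1 (R 4.3.3) over 770 genes without a filter, with only the groups compared in each fit. A gene was called at p below 0.01 and a log2 fold change beyond 1. Fold changes are on this scale, and p-values were adjusted over all genes by the Benjamini-Hochberg method. Exact two-sided permutation tests (scipy 1.17.1) were run for single genes and ratios. The fits were tested on simulated data. Sequences and positions were taken from the RefSeq tables of GRCm38.p6. Of the gene names, 763 matched a symbol and 7 a synonym.

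The 4 genes, the gene lists, the markers and the rule for related genes (the 3 highest Pearson correlations for each) were chosen with earlier results of these data known. Of the list of TAM partners and targets, 1 gene is not reported here. The genes named are the 4 members, genes of these lists and those 3 each. Neuron and B cell markers were also measured. Neuron markers were above background in no adult or Low sample (sums of 358 to 603 in High), and B cell markers summed to 136 to 303 in High and 80.6 to 134 in Low. The sums of oligodendrocyte markers were 372 to 654 in High and 336 to 494 in Low, and those of neutrophil markers 99.4 to 190 and 158 to 172. The processing was varied by a pseudocount of 0.1 or 20, a minimum mean value of 50, 20 counts subtracted as background, scaling by median of ratios, by the 6 most stable housekeeping genes (*Csnk2a2*, *Ccdc127*, *Xpnpep1*, *Cnot10*, *Tada2b* and *Fam104a*), by an equal total and by the positive controls alone, quantile normalization, 1 spread over the 3 groups, an adjusted p below 0.05, sample 11 added, and each sample left out.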

Additional observations from a re-analysis of the deposited data

Results flagged for a closer look

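The excluded adult sample 11, which entered no comparison, lay above all 3 kept adult samples for each of the 4 genes. Its normalized value was 6801 for *Axl*, where the kept adult samples reached 1050. It was 381 for *Mertk* against at most 353, 750 for *Pros1* against at most 240, and 793 for *Mfge8* against at most 512. For all 4 genes it was also above every High sample. Its total gene count was 1464449, and its mean distance was 49.9 to the adult, 46.8 to the Low and 27.5 to the High samples. Its *Axl* to *Mertk* ratio was 17.9, its *Pros1* to *Mfge8* ratio 0.946 and its *Mertk* to *Pros1* ratio 0.508. No single sample of High or Low stood apart for any of the 4 genes by Dixon's criterion, where the highest of the 8 ratios was 0.785.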

How the results depend on the processing

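No paired analysis was possible because no sample number is shared between groups. The planned count models on the recovered counts were not run. In High against Low, *Axl* was called under all alternatives, with log2 fold changes from 1.42 (equal total) to 4.43 (positive controls alone). *Mertk* was called at -1.65 with an equal total and at -1.01 with quantile normalization, stood at -0.084 with the 6 stable housekeeping genes, and reversed to 1.35 with the positive controls alone. *Pros1* was called at 1.30 with the 6 stable housekeeping genes, 1.18 with 20 counts subtracted and 2.73 with the positive controls alone, and reversed to -0.26 with an equal total. *Mfge8* was called at -1.52 with an equal total and -1.03 with quantile normalization, and reversed to 0.053 with the 6 housekeeping genes and to 1.49 with the positive controls alone. In Low against adult, an equal total reversed *Axl* (-0.093), *Mertk* (-0.21) and *Pros1* (-0.24). Quantile normalization gave -0.12, -0.12 and -0.083, and the positive controls alone -0.52, -0.64 and -0.66, with *Mfge8* at -0.17. *Pros1* was -0.053 with 20 counts subtracted. With sample 11 added, *Axl* was -0.51 and *Pros1* -0.31.

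In High against adult, sample 11 took *Axl* to 1.94, no longer called for its p (limma adjusted p 0.168), and reversed *Mfge8* to -0.13. *Mertk* was 0.10 with the 6 housekeeping genes, -1.86 with an equal total and -1.13 with quantile normalization (both called), and 0.72 with the positive controls alone. *Pros1* was called at 1.46, 1.12 and 2.07 with the 6 housekeeping genes, 20 counts subtracted and the positive controls alone, and reversed to -0.50 with an equal total. *Mfge8* reversed to -0.23 with median of ratios, -1.26 with an equal total and -0.66 with quantile normalization, and was 0.70 with the 6 housekeeping genes and 1.32 with the positive controls alone.

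Without 1 sample each, High against Low gave 2.33 to 2.61 for *Axl*, -0.71 to -0.51 for *Mertk*, 0.60 to 0.89 for *Pros1* and -0.58 to -0.37 for *Mfge8*. Low against adult gave 0.10 to 0.55, 0.11 to 0.23, 0.04 to 0.24 and 0.46 to 0.88, and High against adult 2.54 to 3.00, -0.54 to -0.33, 0.75 to 1.04 and -0.033 to 0.39. There *Pros1* was called at 1.04 without High sample 2, and *Mfge8* was at -0.033 without adult sample 1. The calls over all genes numbered 291, 83 and 284 in the 3 comparisons, and 235 to 310, 75 to 95 and 225 to 303 without 1 sample each. They were 659 in the first with the positive controls alone. In the second they were 135 with 20 counts subtracted, 226 with the positive controls alone and 34 with sample 11, and in the third 49 with sample 11. Of the called genes 74.6%, 74.7% and 79.2% were higher. With an equal total these shares were 15.9%, 28.9% and 9.95%, with quantile normalization 50.7%, 59.8% and 50.5%, with median of ratios 59.4%, 65.4% and 59.0%, and with the 6 housekeeping genes 97.5%, 74.7% and 97.7%. Subtraction of 20 counts gave 80.5%, 40.7% and 89.6%, and the positive controls alone 100%, 3.54% and 99.8%. With sample 11 the shares against adult were 61.8% and 100%. The log2 ratio of *Axl* to *Pros1* in the first comparison was 1.37 with 20 counts subtracted. With sample 11 that of *Axl* to *Mertk* was -0.63 in the second and 2.45 in the third. The causes of these shifts were not tested. Depth limits the Low group most, where the lowest counts were 58 for *Pros1* and 96 for *Mertk*.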
